A study of Mus musculus with 12 samples.

Results

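The 43 genes described here encode the machinery that copies nuclear DNA: the proteins that mark and license replication origins, the MCM helicase and its activators, the polymerases, the sliding clamp and its loader, the enzymes that supply deoxynucleotides, and factors that work at or behind the fork. They were chosen by gene symbol from a list of replication genes, with earlier results of these data known. All 43 were found among the 32692 listed genes, and all 43 had enough counts to be among the 18763 genes tested. They were measured by total RNA sequencing, after removal of ribosomal RNA, of whole kidneys from wild-type, untreated mice at day 0 (n = 6 libraries) and day 8 (n = 5 libraries). The labels name 12 samples, of which 1 at day 8 had no values in the sources used here and was not analysed. Whether the libraries are from different animals is not stated, and the p-values therefore describe the spread among the libraries, which may be technical.

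A replication origin is bound by the origin recognition complex, which, with Cdc6 and Cdt1, loads the ring of Mcm2 to Mcm7 onto DNA in the G1 phase of the cell cycle. At the start of S phase the ring is activated by Cdc45 and the GINS complex, and polymerases, clamp and ligase follow. Many of these genes are transcribed under E2F factors as cells enter S phase, so their RNA is low in resting cells. In the mouse, nephrons keep forming for some days after birth and tubules keep lengthening, and both involve dividing cells.

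Relative to the other RNA of a library, the RNA of most replication genes was lower in kidneys at day 8 than at day 0. By edgeR's quasi-likelihood test with adjustment over all tested genes, 39 of the 43 genes were lower at day 8 and 2 were higher (Rfc2 and Tk1), while Rpa1 and Rrm2 did not pass the adjusted p threshold of 0.05. Of all tested genes, 30.1% were lower and 27.5% were higher. The median log2 fold change of the 43 genes was -0.46, a 1.38-fold lower level, against -0.01 over all tested genes. Single genes ranged from -0.97 for Gins1 to 0.35 for Tk1. The falls were modest in size: 16 genes fell by at least 1.5-fold and 23 fell by less. For 30 of the 43 genes every day 8 library lay below every day 0 library, as did 21.4% of all tested genes, and for the other 13 the ages overlapped. These levels are relative to the rest of each library, and the amount of RNA per kidney was not measured. In bulk tissue, a smaller share of replicating cells and less RNA per cell cannot be told apart.

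**Figure D1:**
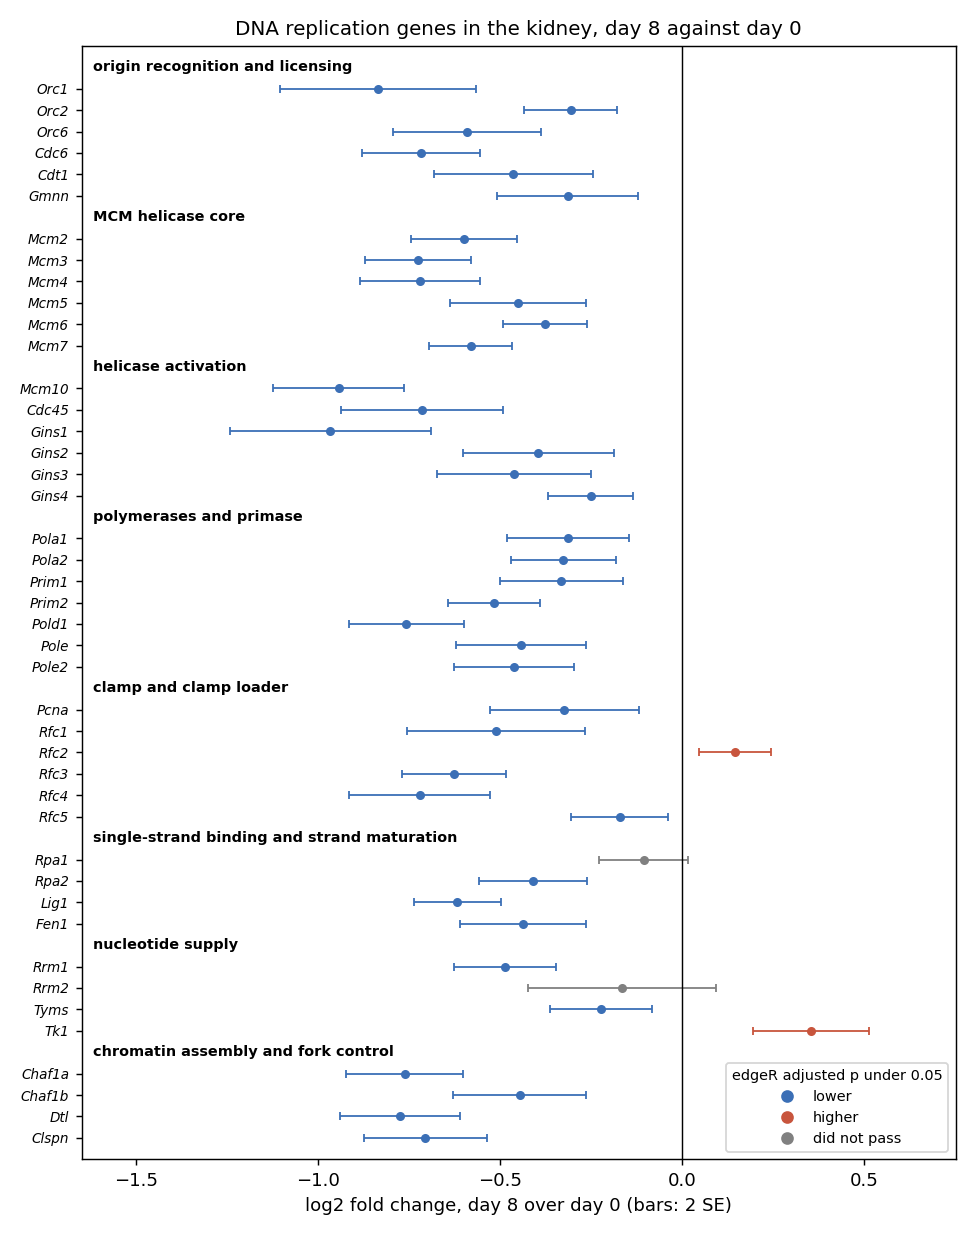
Log2 fold change of each of the 43 replication genes, day 8 over day 0, from edgeR (points), with bars of 2 SE, ordered by role. Blue points passed an adjusted p of 0.05 as lower, red as higher and grey did not pass; 39 points are blue, and red marks Rfc2 and Tk1.

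To show what surrounds the starts of genes that differed in their response, promoter windows of 300 bases (250 before the annotated start and 50 after it) were taken from RefSeq on build GRCm38.p6, which held windows for 35 of the 43 genes. Those of Orc1, Cdt1, Rrm1, Rrm2 and Tk1 are shown because ratios between these genes and their partners are tested below, and that of Mcm10 because it had the largest fall among the genes with a window. Orc1 is at chr4:108579204-108579503 (plus strand), Cdt1 at chr8:122567765-122568064 (plus), Mcm10 at chr2:5012742-5013041 (minus), Rrm1 at chr7:102441445-102441744 (plus), Rrm2 at chr12:24708004-24708303 (plus) and Tk1 at chr11:117825965-117826264 (minus). Each is printed 5′ to 3′ on the strand of its gene. Capitals mark E2F-type letters (TTTGGCGC, TTTCCCGC, TTTCGCGC or TTTGCCGC, on either strand) and the CCAAT box (CCAAT, on either strand).
Orc1: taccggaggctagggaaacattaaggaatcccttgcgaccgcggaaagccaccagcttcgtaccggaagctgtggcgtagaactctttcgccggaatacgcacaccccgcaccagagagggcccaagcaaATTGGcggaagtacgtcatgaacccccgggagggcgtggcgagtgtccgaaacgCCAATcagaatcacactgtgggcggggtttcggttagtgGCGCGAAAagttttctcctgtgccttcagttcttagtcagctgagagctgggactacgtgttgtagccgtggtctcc
Cdt1: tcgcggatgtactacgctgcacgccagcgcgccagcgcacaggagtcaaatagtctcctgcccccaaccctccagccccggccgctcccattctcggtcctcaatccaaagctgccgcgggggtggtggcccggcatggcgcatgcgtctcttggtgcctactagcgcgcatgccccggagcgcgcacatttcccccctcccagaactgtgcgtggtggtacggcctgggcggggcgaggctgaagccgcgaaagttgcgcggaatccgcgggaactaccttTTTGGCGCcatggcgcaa
Mcm10: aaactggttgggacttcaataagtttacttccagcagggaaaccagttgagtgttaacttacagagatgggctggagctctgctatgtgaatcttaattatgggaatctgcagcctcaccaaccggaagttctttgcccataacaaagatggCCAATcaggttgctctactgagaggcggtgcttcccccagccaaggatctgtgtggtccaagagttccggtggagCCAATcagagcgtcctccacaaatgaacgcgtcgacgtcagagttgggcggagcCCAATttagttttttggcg
Rrm1: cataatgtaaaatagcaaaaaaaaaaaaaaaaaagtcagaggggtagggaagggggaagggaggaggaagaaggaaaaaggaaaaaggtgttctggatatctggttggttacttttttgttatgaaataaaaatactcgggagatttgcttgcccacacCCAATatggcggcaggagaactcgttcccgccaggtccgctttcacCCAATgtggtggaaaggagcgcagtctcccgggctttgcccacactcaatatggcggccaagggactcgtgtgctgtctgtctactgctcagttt
Rrm2: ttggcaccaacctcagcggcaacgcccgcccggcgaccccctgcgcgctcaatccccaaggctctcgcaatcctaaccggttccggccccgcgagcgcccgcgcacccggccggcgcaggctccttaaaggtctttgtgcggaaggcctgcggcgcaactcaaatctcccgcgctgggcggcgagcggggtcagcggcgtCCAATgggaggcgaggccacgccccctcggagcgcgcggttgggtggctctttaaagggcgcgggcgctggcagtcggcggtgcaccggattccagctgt
Tk1: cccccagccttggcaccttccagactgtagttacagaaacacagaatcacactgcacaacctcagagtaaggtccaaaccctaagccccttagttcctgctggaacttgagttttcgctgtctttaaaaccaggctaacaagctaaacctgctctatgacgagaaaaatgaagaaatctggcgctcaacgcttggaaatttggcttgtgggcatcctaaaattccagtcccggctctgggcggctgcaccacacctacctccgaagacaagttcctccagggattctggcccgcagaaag
The Orc1 window held E2F-type letters 27 bases before the start, and that of Cdt1 held them 32 bases after it. The windows of Mcm10, Rrm1 and Rrm2 held CCAAT boxes and no E2F-type letters, and that of Tk1 held neither. The Mcm10 window ended in TTTGGCG, which is TTTGGCGC without its last base, so a match crossing its edge would have been missed. Mcm10 is counted below among the genes without such letters. Windows for Gins1, Gins2, Gins4, Gmnn, Mcm4, Pole, Prim2 and Rfc2 were not used here. Some genes had more than 1 window: over the 40 windows of the 35 genes, 37.5% held E2F-type letters, against 2.26% of all 32851 windows in the table and 3.71% of the windows of tested genes. The 15 genes with such letters were Orc1, Cdc6, Cdt1, Mcm3, Mcm5, Mcm6, Mcm7, Gins3, Pola1, Pold1, Pole2, Rfc3, Lig1, Dtl and Clspn. All 15 were lower at day 8, with a median log2 fold change of -0.62. Of the 20 genes without them, 17 were lower, with a median of -0.42. CCAAT boxes were in 62.5% of the members' windows, 37.4% of all windows and 37.3% of the windows of tested genes. The letters TTTGAA, the core of the cell cycle homology region found in promoters of mitotic genes, were in 10% of the members' windows, 17.9% of all windows and 12.6% of the windows of tested genes, on either strand. A match describes letters only, and binding was not measured.

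Among the origin recognition and licensing genes, each of the 6 fell, and their median log2 fold change was -0.53. Orc1, the subunit of the origin recognition complex whose protein amount changes over the cell cycle in human cells, stood at a lowest of 6.99, a median of 8.32 and a highest of 9.06 CPM (counts scaled to library size by edgeR's TMM method) over the day 0 libraries. Its day 8 libraries 1 to 5 stood at 5.71, 4.57, 3.15, 5.25 and 4.17 CPM. The ages did not overlap, and Orc1 was 1.79-fold lower at day 8 (log2 fold change -0.84, SE 0.14, edgeR adjusted p = 6.76e-05). Orc2, a core subunit present through the cycle, moved much less. It lay between 29.7 and 32.1 CPM at day 0, with a median of 30.1, and its day 8 libraries read 29.1, 22.8, 23.0, 25.0 and 23.0 CPM. The first of these was just under the day 0 range, and the fall was 1.24-fold (log2 -0.31, edgeR adjusted p = 6.83e-04). Orc6, the smallest subunit, fell from 19.5 ± 1.96 (SD, n = 6) to 12.9 ± 2.21 CPM (SD, n = 5), by 0.59 on the log2 scale.

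Cdc6, the ATPase that joins the origin recognition complex to load MCM rings, fell from 18.2 ± 1.21 to 11.04 ± 1.33 CPM (log2 -0.72) with no overlap between ages. Cdt1, the other loader, fell by 0.46 on the log2 scale, and its 5 day 8 libraries, at 31.0, 28.4, 21.2, 32.1 and 23.3 CPM, lay under the lowest day 0 library at 32.3. Gmnn encodes geminin, which binds Cdt1 and blocks loading a second time in a cycle. It fell from 10.7 ± 1.39 to 8.63 ± 0.607 CPM (log2 -0.32, edgeR adjusted p = 0.0109), and here the ages overlapped because 1 day 0 library stood at 8.36 CPM.

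All 6 genes of the MCM helicase ring fell, by a median of 0.59 on the log2 scale, and none overlapped between the ages. The fall was 0.73 for Mcm3, 0.72 for Mcm4, 0.60 for Mcm2, 0.58 for Mcm7, 0.45 for Mcm5 and 0.38 for Mcm6, all on the log2 scale. Mcm3, the largest of these falls, went from a day 0 range of 85.6 to 92.2 CPM (median 87.6) to 60.6, 58.1, 43.5, 56.6 and 48.4 CPM. Mcm6, the smallest, went from a range of 147 to 167 CPM (median 159.8) to 139, 122, 107, 125 and 117 CPM.

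The ring holds 1 copy of each subunit, but the subunit genes did not stand at 1 level. In TPM, which is scaled for transcript length and so allows genes to be set side by side, Mcm6 was the highest of the 6 subunits in 5 day 0 libraries and in all 5 day 8 libraries. In day 0 library 2 it was Mcm7, at 66.0 TPM. Mcm4 was the lowest in every library. The highest subunit stood 1.91 to 2.11 times above the lowest at day 0 and 2.25 to 2.80 times at day 8, with no overlap between ages (a description chosen after the values were seen). Summed over the 6 genes, the level was 279 to 326 TPM at day 0 and 199 to 256 TPM at day 8.

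**Figure D2:**
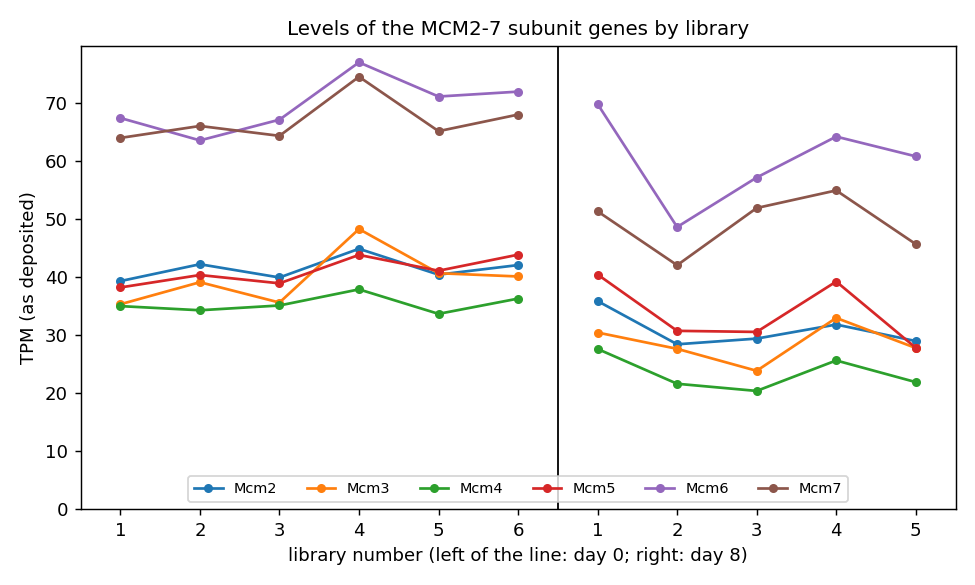
Deposited TPM of Mcm2 to Mcm7 in each library, day 0 on the left and day 8 on the right of the vertical line; each line joins the values of 1 gene across libraries, which have no order. Mcm6 and Mcm7 lie above the other 4 genes in every library, and Mcm4 is the lowest in all of them.

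The 6 helicase activation genes all fell, by a median of 0.59 on the log2 scale, and they held the largest falls among the 43 genes. Mcm10, which is not part of the ring but helps start the activated helicase, read 22.2 to 25.5 CPM at day 0, with a median of 23.6. At day 8 its libraries read 15.2, 12.04, 9.91, 13.2 and 11.2 CPM. The ages were far apart, and Mcm10 was 1.92-fold lower (log2 -0.94, SE 0.09, edgeR adjusted p = 2.42e-07). Gins1, a GINS subunit, was 1.95-fold lower (log2 -0.97, SE 0.14, edgeR adjusted p = 2.08e-05). Its day 8 libraries read 4.68, 4.67, 2.56, 4.46 and 4.74 CPM against 7.42 to 9.10 CPM at day 0. Library 3 stood well below the other 4.

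The GINS complex has 4 subunits, and the other 3 genes fell less than Gins1: by 0.46 for Gins3, 0.40 for Gins2 and 0.25 for Gins4 on the log2 scale. The ages overlapped for Gins2 and Gins3, but not for Gins4, whose day 8 libraries spread little (16.5 ± 0.649 CPM, SD, n = 5, against 19.7 ± 1.17 at day 0, n = 6). Cdc45, which binds the ring together with GINS, fell from 14.9 ± 1.05 to 9.06 ± 1.73 CPM, by 0.72 on the log2 scale and with no overlap.

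All 7 polymerase and primase genes fell, by a median of 0.44 on the log2 scale. The largest fall was that of Pold1, the catalytic subunit of polymerase delta, which copies the lagging strand: 31.4 to 39.4 CPM at day 0 (median 34.9) against 21.6, 23.2, 19.1, 23.1 and 17.9 CPM at day 8, 1.69-fold lower (log2 -0.76, SE 0.08, edgeR adjusted p = 6.99e-07). Pole, the catalytic subunit of the leading-strand polymerase epsilon, fell by 0.44 and its partner Pole2 by 0.46 on the log2 scale. The 4 genes of the polymerase alpha and primase complex, which lays down primers, fell by 0.52 for Prim2, 0.33 for Prim1, 0.33 for Pola2 and 0.31 for Pola1. The ages overlapped for Pola1, Pola2 and Pole. In each of these 3 genes day 8 library 1 reached into the day 0 range, with Pole at 57.8 CPM there and 40.7 to 44.9 CPM in the other 4 day 8 libraries.

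Of the 6 clamp and clamp loader genes, 5 fell and 1 rose, with a median log2 fold change of -0.42. Pcna, the sliding clamp that tethers the polymerases, had the highest level of all 43 genes at both ages, 99.7 TPM on average at day 0 and 88.7 TPM at day 8. In CPM it lay between 98.8 and 124 at day 0, with a median of 112, and its day 8 libraries read 109, 94.5, 79.4, 93.9 and 70.5. The ages overlapped through day 8 library 1, and the fall was 1.25-fold (log2 -0.32, SE 0.10, edgeR adjusted p = 0.0164). Pcna-ps2, a processed copy of the gene, was listed with its own counts (17.2 CPM at day 0 and 12.9 at day 8 on average), so reads may have been divided between the copies and the level of Pcna is less certain.

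Replication factor C is a 5-subunit loader that opens the clamp, and its genes did not move together. Rfc4 fell by 0.72, Rfc3 by 0.63 and Rfc1 by 0.51 on the log2 scale, with no overlap between ages in these 3 genes. Rfc1, the large subunit, read 71.1, 64.2, 60.8, 39.0 and 62.7 CPM at day 8 against 79.7 to 88.7 CPM at day 0, so library 4 stood far under the others. Rfc5 fell by 0.17 (edgeR adjusted p = 0.036), a call that was lost under 10 of 22 other settings and also under 2 more, the fits to deposited TPM, where the sign turned (0.055 with 1 added). Rfc2 was 1.11-fold higher at day 8 (log2 0.15, SE 0.05, edgeR adjusted p = 0.0198), with 34.7 to 38.8 CPM at day 0 and 42.4, 40.8, 40.4, 41.7 and 37.2 CPM at day 8. The last of these lay inside the day 0 range, and with scaling by library size alone the rise of Rfc2 did not pass (log2 0.08, edgeR adjusted p = 0.194).

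Among the 4 genes of single-strand binding and strand maturation, 3 fell, and the median log2 fold change was -0.42. Lig1, the ligase that seals Okazaki fragments, had the tightest day 0 values of the 43 genes, 57.4 to 61.4 CPM, and read 43.3, 39.2, 34.2, 40.0 and 34.2 CPM at day 8 (log2 -0.62, SE 0.06, edgeR adjusted p = 2.97e-07). Fen1, the nuclease that trims Okazaki fragments, fell by 0.44, and Rpa2, the middle subunit of the single-strand binding protein, by 0.41 on the log2 scale, both without overlap. Rpa1, the large subunit of the same protein, which also serves DNA repair, had a log2 fold change of -0.11 (SE 0.06, edgeR adjusted p = 0.151) with 74.6 ± 3.12 CPM at day 0 and 69.3 ± 7.37 at day 8.

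The 4 nucleotide supply genes were the only role with a rise, a fall and a gene that did not pass, and their median log2 fold change was -0.20. Ribonucleotide reductase makes deoxynucleotides from ribonucleotides with a large subunit, Rrm1, and a small subunit, Rrm2. Rrm1 read 142 to 169 CPM at day 0 and 129, 117, 102, 112 and 95.4 CPM at day 8, a 1.40-fold fall with no overlap (log2 -0.49, edgeR adjusted p = 3.04e-05). Rrm2 read 80.1 to 95.8 CPM at day 0 and 97.5, 74.4, 67.0, 92.3 and 56.3 CPM at day 8. Its day 8 libraries ran from below the lowest day 0 library to above the highest, and the difference did not pass (log2 -0.17, SE 0.13, edgeR adjusted p = 0.296). Tyms, which makes thymidylate from deoxyuridylate, fell by 0.22 on the log2 scale (edgeR adjusted p = 0.0118) from 44.4 ± 1.22 to 38.0 ± 4.95 CPM, with overlap.

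Tk1, the thymidine kinase of the salvage pathway in S phase, went the other way. It lay between 27.4 and 32.3 CPM at day 0, with a median of 29.6, and read 44.4, 36.4, 36.0, 42.3 and 31.8 CPM at day 8. Of these, 4 lay above every day 0 library and the last inside their range, and Tk1 was 1.28-fold higher (log2 0.35, SE 0.08, edgeR adjusted p = 0.00125). The gene lies at chr11:117815526-117826092 on the minus strand (GENCODE vM21, GRCm38), where 169 bases at its start overlap Afmid on the opposite strand. Afmid rose from 7.09 ± 0.455 to 24.8 ± 2.81 CPM. The library kit keeps the strand but whether the counts used it is not stated, and the part of Afmid reads in the rise of Tk1 was not tested. Of the 43 genes, 24 overlap another annotated gene, and for these the levels are less certain.

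**Figure D3:**
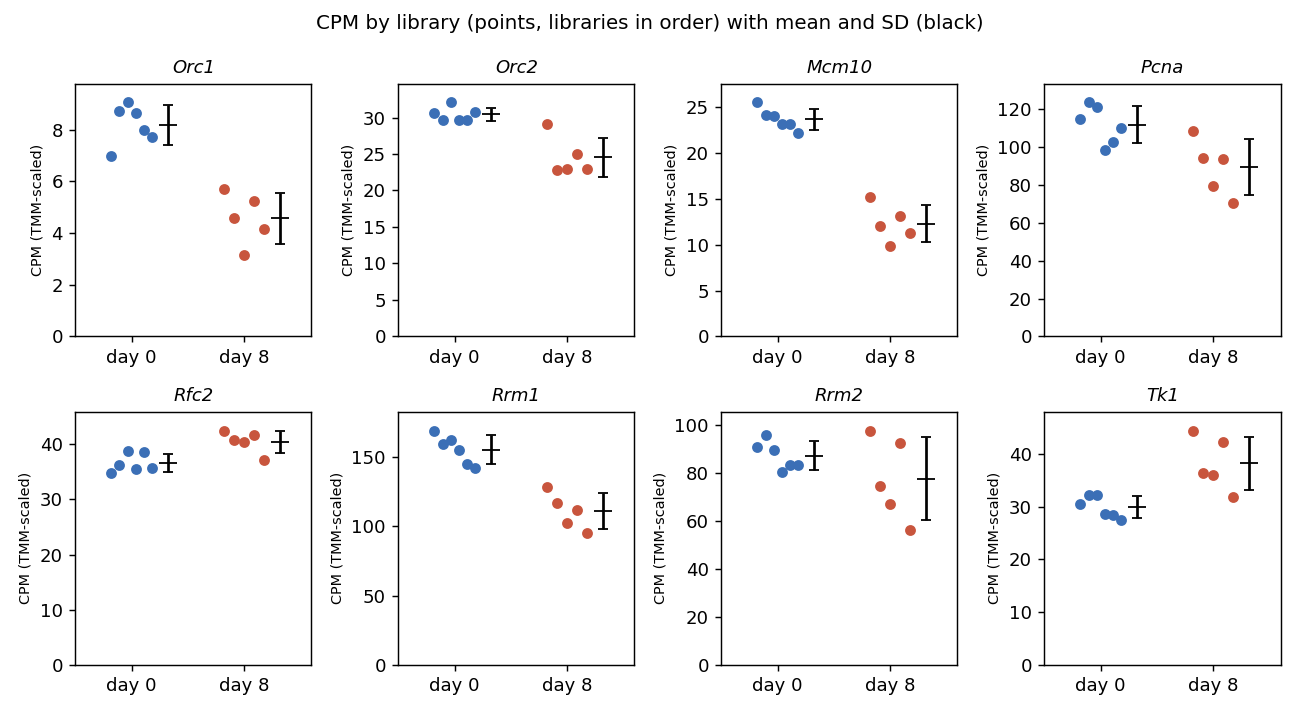
CPM of Orc1, Orc2, Mcm10, Pcna, Rfc2, Rrm1, Rrm2 and Tk1 in each library at day 0 (blue, n = 6) and day 8 (red, n = 5), with mean and SD in black; axes start at 0. The ages are apart for Orc1, Orc2, Mcm10 and Rrm1 and overlap for the other 4 genes, with Rfc2 and Tk1 higher on average at day 8.

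The chromatin assembly and fork control genes all fell, with the largest median of the 8 roles at -0.73 and no overlap between ages in any of the 4. Dtl is the substrate receptor of the ubiquitin ligase that destroys Cdt1 in S phase, and it fell 1.71-fold, from 65.7 to 72.5 CPM at day 0 (median 69.2) to 48.4, 39.7, 34.0, 44.7 and 34.7 CPM (log2 -0.78, SE 0.08, edgeR adjusted p = 1.45e-06). Chaf1a, the large subunit of chromatin assembly factor 1, which places histones on new DNA, fell by 0.76, and its partner Chaf1b fell by 0.45 on the log2 scale. Clspn, the fork protein that carries the checkpoint signal from Atr to Chk1, fell by 0.71.

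Ratios within a library do not depend on how libraries are scaled, so 6 pairs of genes were compared as ratios of counts. Exact two-sided permutation tests over libraries were used, with adjustment over the 6. The pairs were chosen with earlier results of these data known, which the p-values do not take into account. The ratio of Orc1 to Orc2 was 0.270 ± 0.0256 (SD, n = 6) at day 0 and 0.186 ± 0.0286 (SD, n = 5) at day 8, lower in all 5 day 8 libraries than in any day 0 library (exact permutation p = 0.00216, the smallest that 6 against 5 libraries allow, adjusted p = 0.0130). Taken from deposited TPM, the log2 difference was as large at -0.59, but its adjusted exact p was 0.0563. The ratio of Rrm2 to Rrm1 rose from 0.560 ± 0.0319 to 0.693 ± 0.0961 (exact permutation p = 0.00433, adjusted p = 0.0130). It was 0.758, 0.638, 0.654, 0.825 and 0.590 in the day 8 libraries, of which the last lay inside the day 0 range of 0.515 to 0.600.

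Lig1 was set against Lig3, a ligase used in repair and in mitochondria. That ratio fell from 0.736 ± 0.0410 to 0.591 ± 0.0993 (exact permutation p = 0.0130, adjusted p = 0.0260), with day 8 library 1 at 0.745 inside the day 0 range. The call was lost with ratios of TPM (adjusted exact p = 0.164). It was also lost without any 1 of the 6 day 0 libraries (adjusted exact p between 0.0635 and 0.0794). The log2 difference was then -0.35 to -0.31, close to the -0.33 with all libraries. Leaving out a library raises the smallest possible exact p, so these losses cannot show that the ratio depended on any day 0 library. The call was kept without any 1 day 8 library (adjusted exact p between 0.0143 and 0.0476). The other 3 ratios did not pass. Cdt1 to its inhibitor Gmnn was 3.51 ± 0.241 at day 0 and 3.13 ± 0.400 at day 8 (adjusted exact p = 0.101), but passed without day 8 library 4 (0.0214). Rrm2 to Rrm2b, the small subunit used outside S phase, was 3.08 ± 0.226 and 2.54 ± 0.490 (adjusted exact p = 0.0584), and passed without day 8 library 1 or library 4 (0.0214 for each). Tk1 to Tk2, the mitochondrial thymidine kinase, was 2.20 ± 0.477 and 2.44 ± 0.461 (adjusted exact p = 0.366).

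**Figure D4:**
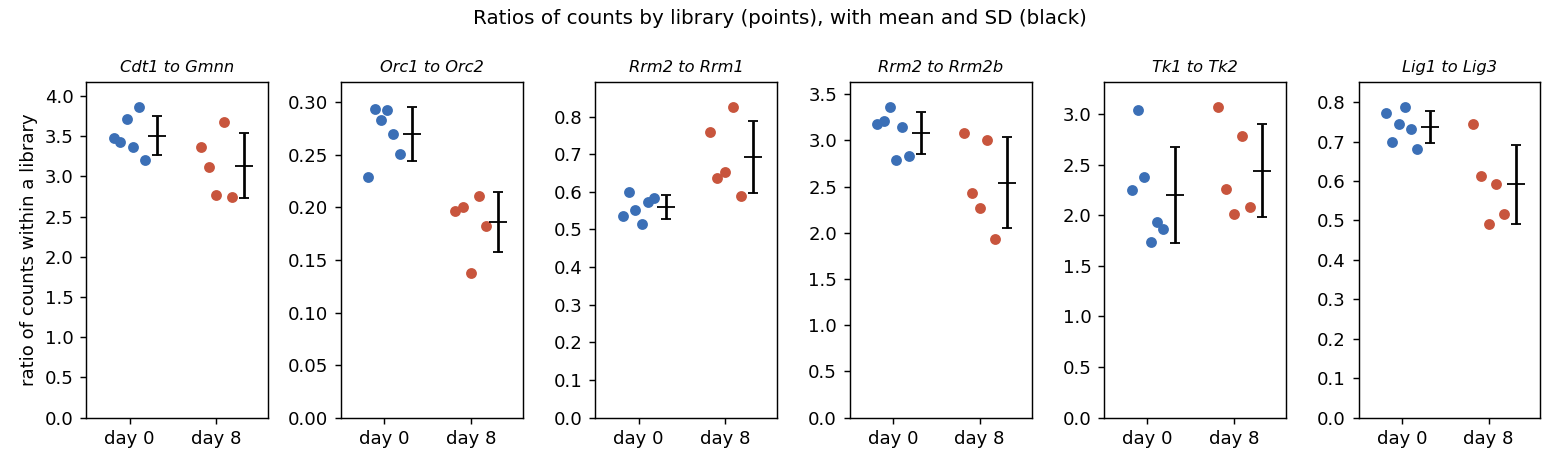
Ratio of counts of 2 genes within each library, for 6 pairs, at day 0 (blue, n = 6) and day 8 (red, n = 5), with mean and SD in black; each axis starts at 0. Orc1 to Orc2 is lower in every day 8 library than in any day 0 library, and in the other 5 panels the ages overlap.

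Libraries of the same age differed in their level of replication genes, and the spread was wider at day 8. The coefficient of variation of the 43 genes over libraries had a median of 6.76% at day 0 (lowest 2.50%) and 13.4% at day 8 (highest 22.3%). The same measure over all tested genes is not given here, so the wider spread is not shown to be particular to these genes. In CPM at day 0, library 1 held the highest value for 13 genes, library 2 for 12 and library 3 for 10. These were 30.2%, 27.9% and 23.3% of the genes, against 14.7%, 19.3% and 14.1% of all tested genes. The lowest was in library 5 for 15 genes (34.9%, against 16.8%) and in library 6 for 16 (37.2%, against 18.8%). Day 8 library 1 held the highest of the 5 values for 33 of the 43 genes (76.7%, against 19.1% of all tested genes). Day 8 library 3 held the lowest for 25 genes (58.1%, against 17.7%), and library 5 for 15 (34.9%, against 22.7%). Relative to each gene's mean over all libraries, the members' median stood at -0.07 on the log2 scale in library 1, -0.46 in library 3 and -0.39 in library 5. Summed over the 43 genes, the level was 1978 to 2168 CPM in day 0 libraries and 1768, 1570, 1356, 1591 and 1367 CPM in day 8 libraries, so every day 8 library lay under every day 0 library. In summed TPM the ages overlapped, with 1054 to 1206 TPM at day 0 and 844 to 1096 TPM at day 8, where library 1 was the highest.

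**Figure D5:**
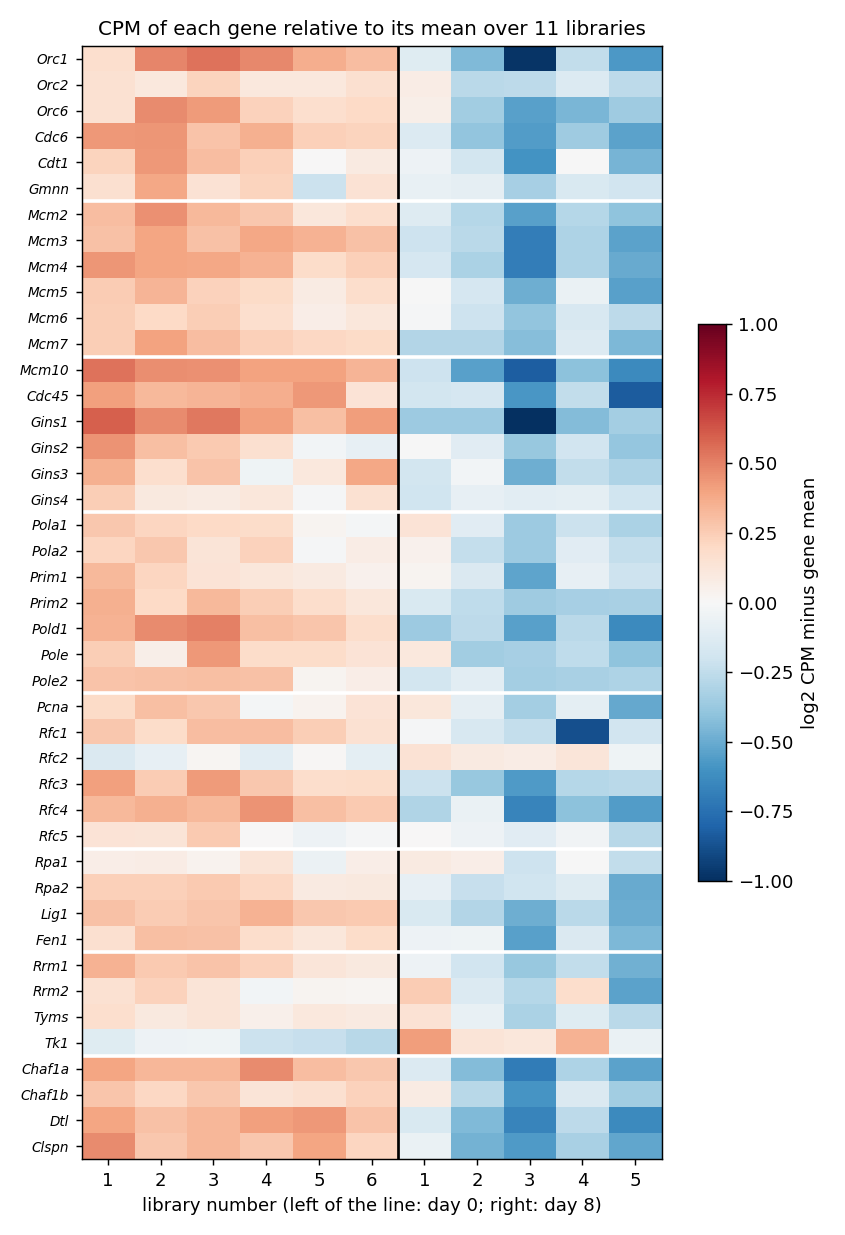
Log2 CPM of each replication gene minus its mean over the libraries, with day 0 libraries left and day 8 libraries right of the black line and white lines between roles. Red is above and blue below the gene's mean; day 0 columns are mostly red and day 8 columns mostly blue, palest in day 8 library 1, while the Rfc2 and Tk1 bands run the other way.

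Markers of other tissues also differed between libraries. Summed fat markers were 121, 100.1 and 88.6 CPM in day 8 libraries 3, 4 and 5 against 50.2 to 66.4 CPM in the other libraries. Of the 7, 4 were tested and 3 rose, while Lep was at 0 in every day 0 library. Fabp4, most of the sum at day 0, did not pass, at means of 58.1 CPM at day 0 and 56.5 at day 8. Day 8 libraries 1 and 2 also held Ucp1, at 3.44 and 3.05 CPM, against at most 0.0548 CPM at day 0. Summed liver markers were 194 to 311 CPM in day 0 libraries 1 to 3, 108 and 53.8 CPM in day 8 libraries 3 and 4, and 11.7 to 18.7 CPM elsewhere, and none of the 5 passed. Day 0 libraries 1 to 3 also held most of the highest day 0 CPM values of the replication genes. In summed TPM of these genes they read 1054, 1069 and 1098, under the 1133 to 1206 TPM of day 0 libraries 4 to 6. The part of liver tissue in these differences was not tested. Without day 8 libraries 3 to 5, which left libraries 1 and 2 at day 8, 28 of the 43 genes were lower and the same 2 were higher. The share of all tested genes that were lower in this fit is not given here. The genes that then lost their call were Orc2, Gmnn, Gins2, Gins3, Pola1, Pola2, Prim1, Pole, Pcna, Rfc5 and Tyms. This fit had fewer libraries, and day 8 library 1 held the highest day 8 value for 33 of the 43 genes. The parts of fat, of fewer libraries and of library 1 in these losses were not tested.

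The libraries held the markers of kidney, and the following sums were higher in every day 8 library than in any day 0 library. Summed podocyte markers were 665 to 756 CPM at day 0 and 776 to 842 CPM at day 8, and 2 of 3 rose. Those of the thick ascending limb went from 952 to 1103 CPM to 2234 to 2934 CPM, and all 3 rose. Those of the collecting duct went from 207 to 301.5 CPM to 307 to 405 CPM, and 2 of 3 rose. Markers of other cell types also moved with age. All 7 nephron progenitor markers fell, from 173 to 195 CPM summed at day 0 to 17.0 to 19.5 CPM at day 8, and all 5 ureteric tip markers fell, from 224 to 250.01 CPM to 47.2 to 63.0 CPM. All 5 proximal tubule markers rose, from 3802 to 4868 CPM to 8647 to 9522 CPM. Erythroid precursors, which also replicate DNA, had 9 of 10 markers in the table, of which 6 were tested and 2 fell. Their sum was 18.7 to 31.9 CPM at day 0 and 19.0 to 30.3 CPM at day 8. The erythroid factor Gata1 was near 0, at means of 0.0844 and 0.0434 CPM. Of 7 granulocyte and megakaryocyte markers 6 were tested and 5 fell, and the sum went from 11.6 to 19.2 CPM to 5.93 to 9.63 CPM. Of 6 skeletal muscle markers only 2 were tested and these fell, and the sum went from 2.08 to 23.0 CPM to 0.439 to 0.913 CPM. Of 7 lymphocyte markers 4 were tested, 2 rose and 1 fell, with 4.20 to 6.85 CPM at day 0 and 9.29 to 12.7 CPM at day 8. Of 5 macrophage markers 2 rose, with 62.2 to 71.2 CPM and 73.1 to 77.9 CPM. The part of these cell types in the fall of the replication genes was not tested.

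Deposited TPM gave fewer calls than counts. All tested genes had a median log2 fold change of 0.13 in log2(TPM + 1), against -0.01 with TMM-scaled counts, and the 43 genes had -0.31. By limma on log2(TPM + 1), 26 of the 43 genes were lower (14.8% of all genes tested this way) and 2 were higher (32.2%), again Rfc2 and Tk1. The 26 were among the 39 called lower by edgeR. The other 13 were Orc2, Gmnn, Mcm6, Gins2, Gins3, Gins4, Pola1, Pola2, Prim1, Pole, Pcna, Rfc5 and Tyms, none of which was called higher. In mean TPM, Pcna ranked first at both ages and Mcm6 second. Rfc2 had rank 6 at day 0, at 44.9 TPM, and rank 3 at day 8, at 55.5 TPM. The lowest at both ages was Orc1, at 3.92 and 2.30 TPM, next to Gins3 at 4.32 and 3.58 TPM.

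Genes outside the 43 that act in the same process were compared in lists. Of 45 other replication factors, 33 were lower (73.3%, against 30.1% of all tested genes) and 1 was higher, against 27.5%. Their median log2 fold change was -0.35, and 20 were lower in TPM, against 14.8% of all genes tested in TPM. The largest falls were those of Ticrr, which brings Cdc45 to the helicase (log2 -1.09, from 39.5 ± 2.29 to 18.6 ± 2.57 CPM), Wdhd1, which ties polymerase alpha to the helicase (-0.92), and Timeless, a fork protection protein (-0.91).

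Of 19 genes for E2F factors, pocket proteins and their partners, 12 were lower (63.2%, against 30.1% of all tested genes). Another 2 were higher, against 27.5% of all tested genes, and the median log2 fold change of the list was -0.25. The largest falls were those of Mybl2, a MYB factor that acts with the MuvB complex in S phase and G2 (log2 -0.92), and of the repressive E2F genes E2f7 (-0.79) and E2f8 (-0.76). Rbl2, the pocket protein p130 of resting cells, rose 1.54-fold, from 54.6 ± 1.54 to 83.8 ± 1.69 CPM (log2 0.62, SE 0.04, edgeR adjusted p = 1.01e-09), with no overlap. Lin52, a MuvB subunit, rose by 0.30 on the log2 scale, with overlap.

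All 20 mitosis genes were lower, against 30.1% of all tested genes, with a median log2 fold change of -0.60. The largest falls were in Bub1 (-0.83), Bub1b (-0.77) and Tpx2 (-0.75), which work at the kinetochore and spindle. The 15 genes of mitochondrial DNA replication and of nucleotide supply outside S phase had a median of 0.04. Of these, 4 were lower (26.7%, near the 30.1% of all tested genes), namely Twnk (-0.33), Lig3 (-0.29), Top3a (-0.23) and Tfam (-0.19). Another 2 were higher, against 27.5% of all tested genes, namely Top1mt (0.33) and Polrmt (0.24). Rrm2b, with a log2 fold change of 0.10 (edgeR adjusted p = 0.0903), and Tk2, with 0.18 (0.123), did not pass.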

How the data were processed

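Libraries were made with a stranded total RNA kit that removes ribosomal RNA, per the labels' protocols. The authors deposited estimated counts and TPM per gene, and per the submitters' processing notes FastQC, fastp, DRAGEN and Picard and build mm10 were used. The counting tool, annotation and strand setting are not given in the sources used here. Library totals were 18222170 to 24428652 estimated counts. No 2 libraries of 1 age were duplicates (chi-square per degree of freedom 4.64 to 41.6 over 25 pairs).

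Estimated counts were rounded and tested with edgeR 4.0.16 in R 4.3.3 (TMM, filterByExpr, robust quasi-likelihood fit with age as the only term, Benjamini-Hochberg adjustment over all 18763 tested genes, threshold 0.05). The procedure was tested on simulated data. CPM is TMM-scaled, and errors are SD unless named SE. Ratios used counts with 0.5 added. Overlaps used GENCODE vM21 on GRCm38, and promoters came from RefSeq on GRCm38.p6. Alternatives were library size or RLE scaling, DESeq2 1.42.0, limma-voom (limma 3.58.1), other low-count filters, limma on TPM (mean at least 1) with 1 or 0.1 added before log2, a term for Xist level, a threshold of 0.01, and fewer libraries.

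The 43 genes, the other lists and the ratios were chosen with earlier results of these data known. Named outside the 43 are the 3 called genes with the largest change in each direction of each other list and the genes of the ratios; Tfam was named after its values were seen, and 1 gene that the rule names is not reported here. Libraries are numbered in accession order within an age. The tests were planned for 6 libraries at day 8 and run with the 5 that had values.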

Additional observations from a re-analysis of the deposited data

Results flagged for a closer look

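A gap between 1 library and the rest of its age that passed Dixon's 95% limit was found in 3 of 98 groups of values looked at, where chance alone gives about 1 in 20. Orc6 stood at 16.7 CPM in day 8 library 1, against 11.004 to 12.6 CPM in the other 4 day 8 libraries. Pole stood at 57.8 CPM in the same library, against 40.7 to 44.9 CPM. Gins1 stood at 2.56 CPM in day 8 library 3, against 4.46 to 4.74 CPM. Library 1 was also the highest day 8 library for 33 of the 43 genes, and library 3 the lowest for 25.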

How the results depend on the processing

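The count of 39 lower replication genes was 35 to 40 with other scalings, filters, tools, the Xist covariate or an adjusted p of 0.01, 38 or 39 without any 1 library, and 26 in TPM. The count of 2 higher genes was 1 with library size only and 1 with an adjusted p of 0.01. Of the 39, 26 kept their call under all 22 settings. Rfc5 turned to 0.055 with log2(TPM + 1) and 0.056 with log2(TPM + 0.1). Other replication factors numbered 20 lower and 2 higher with either TPM fit, against 33 and 1, and 29 to 33 lower without any 1 library. The cause was not tested. In log2 differences without 1 library, Cdt1 to Gmnn ran from -0.23 to -0.12, Orc1 to Orc2 from -0.60 to -0.45, Rrm2 to Rrm2b from -0.37 to -0.20 and Lig1 to Lig3 from -0.42 to -0.27. With TPM, Orc1 to Orc2 was -0.59 and Lig1 to Lig3 -0.26. Between 5 and 6 libraries an exact p cannot go below 0.00216, and without 1 library this limit is higher. No paired analysis was run, because the labels give no pairing of libraries between the ages.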
